A study of Mus musculus with 30 samples.

Results

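Type I interferon response genes were followed in RNA of the healing tibial fracture callus of mice. Members were the 42 genes of a list of interferon-induced genes, found by symbol among the 43629 genes of the deposited read count table, and all 42 passed the filter on low counts in every comparison. The 30 libraries came from 1 callus each of male C57BL/6J mice with an open tibial osteotomy of the right hindlimb. Lean mice, on a low-fat diet, gave 12 libraries on d3, d5, d7 and d10 after fracture. Diet-induced obese (DIO) mice, on a high-fat diet, gave 18 libraries, on the same days and also on d14 and d21. Each group of diet and day held 3 mice. The mice were adults, 20 weeks old at surgery, and all had a fracture. The 30 libraries therefore hold no unfractured bone, and obesity and the diet that caused it cannot be told apart. The later days, d14 and d21, were not analysed here for lean mice.

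Type I interferons are cytokines that cells release when sensors detect foreign or misplaced nucleic acid. They bind the receptor of Ifnar1 and Ifnar2, which acts through the kinases Jak1 and Tyk2 to bring Stat2 and Irf9 into a complex that binds the interferon-stimulated response element in promoters. The induced genes encode more sensors, transcription factors that sustain the response, and effectors that bind or degrade RNA, conjugate ISG15 to proteins, or act at membranes. In bone, interferon beta is known as a brake on osteoclast formation, and myeloid cells are a main site of the response.

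The response element was searched for in the promoters of the members, because the list is defined by the response to interferon and not by sequence. Promoter windows of 300 bases, from 250 before to 50 after the annotated gene start, were available from RefSeq on GRCm38.p6 for 32 of the 42 members. The letters GAAANNGAAA, or TTTCNNTTTC on the other strand, were present in at least 1 window of 16 of these members (50%), against 1079 of 27025 genes with a window (3.99%). A match to GAS, the gamma-activated site, with the letters TTCNNNGAA, was present in 8 of the 32 members (25.0%), against 9.55% of all genes with a window. Members with the first element had 1 match in 8 cases, 2 in 7 cases and 3 in 1 case, Isg15. Stretches around the matches are given 5′ to 3′ on the strand of the gene, with matches in capitals, for members that lead the changes with diet or day or that are near-copies of each other.

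Isg15 (chr4:156200855-156200916, minus strand): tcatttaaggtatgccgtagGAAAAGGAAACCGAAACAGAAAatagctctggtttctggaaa
Rsad2 (chr12:26456543-26456592, minus strand): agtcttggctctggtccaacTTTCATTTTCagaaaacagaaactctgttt
Ifit3 (chr19:34583353-34583436, plus strand): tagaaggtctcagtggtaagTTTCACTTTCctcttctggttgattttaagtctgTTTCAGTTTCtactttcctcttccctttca
Oas1a (chr5:120907526-120907565, minus strand): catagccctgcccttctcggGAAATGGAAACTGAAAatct
Oas1g (chr5:120887614-120887651, minus strand): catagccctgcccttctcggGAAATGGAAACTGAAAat
Oas3 (chr5:120777705-120777754, minus strand): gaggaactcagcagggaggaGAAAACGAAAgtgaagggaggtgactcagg
Bst2 (chr8:71537567-71537622, minus strand): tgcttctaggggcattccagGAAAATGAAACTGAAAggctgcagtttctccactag

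In Isg15 the 3 matches overlapped, starting 78, 72 and 66 bases before the gene start, and in Bst2, Oas1a and Oas1g 2 matches overlapped. The stretch of Ifit3b (chr19:34607749-34607832) had the same 84 letters as that of Ifit3, and Trim30a and Trim30d shared their stretch of 50 letters in the same way. Isg20, Cmpk2, Irf7, Irf9, Irf1, Oasl1, Oasl2 and Lgals3bp were among the 16 members whose windows held no match to these letters. In Ddx58, Eif2ak2, Ifih1 and Ifitm3 the matches lay after the annotated start. A match is a description of the letters only, and windows of Oas2, Mx1, Mx2, Usp18 and other members were not used here.

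**Figure D1:**
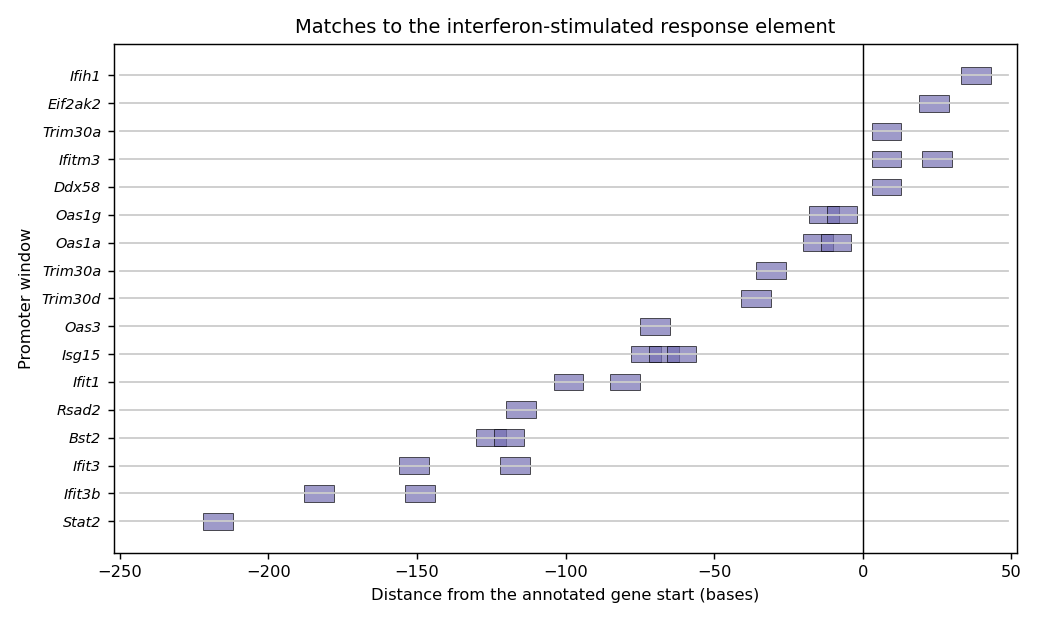
Position of each match to the interferon-stimulated response element (box, 10 bases wide) in the promoter windows of member genes that hold one; the x axis is the distance from the annotated gene start in bases and each line is 1 window from 250 bases before to 50 after the start. Isg15 carries 3 overlapping matches, and Trim30a has 2 windows because 2 starts are annotated.

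Reads counted on genes ran from 13247122 to 26365620 per library. A floor of 3 counts corresponded to 0.114 to 0.226 CPM (counts scaled to library size) across the libraries, and no member fell below it, since the lowest count of any member in any library was 8, for Ifit3b. Levels are given as CPM scaled with edgeR's TMM factors, as mean ± SD of 3 mice. Libraries of a group were not duplicates of each other. Library 1 of lean d10 stood apart, with a summed level of 10 chondrocyte markers of 80254 CPM against 17507 and 18733 in the other d10 libraries, and the lowest pan-leukocyte sum of its group (942 CPM). Library 3 of DIO d7 had the highest neutrophil (11609 CPM) and erythroid (8037 CPM) marker sums of its group. Both were kept, and counts that depend on them are also given without them.

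Per length of annotated exons, averaged over the 10 groups, Ifitm3 was the most abundant member, with 386 CPM per kb. Ifitm3 restricts entry of viruses at endosomal membranes. It was followed by Ifi27l2a (83.4 CPM per kb), Bst2 or tetherin (74.8 CPM per kb), the secreted glycoprotein gene Lgals3bp (45.9 CPM per kb) and the ubiquitin-like modifier Isg15 (28.5 CPM per kb). At the low end were Ifi44 (0.633 CPM per kb), the GTPase gene Mx2 (1.16 CPM per kb) and the ligase gene Herc6 (1.17 CPM per kb). Reads of Ifit3 and Ifit3b, which share 97.8% of letters over 1700 bases, and of Oas1a and Oas1g, with 97.6% over 1861 bases, may be split between the copies, so these 4 genes are uncertain. Mx2 shares 843 bases with Mx1 at 95.3%, and Isg15 shares 482 bases with a gene annotated as AC151275.1 at 95.2%. Dtx3l and Parp9 overlap by 458 bases on opposite strands, and 13.7% of the exons of Herc6 and 13.9% of those of Rtp4 lie under another gene of the same strand. Irf9, Xaf1 and Dtx3l hold short repeats that recur in several other genes. In common laboratory strains Mx1 and Mx2 are known to carry defects that prevent a full protein, so their levels are read here as RNA only.

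**Figure D2:**
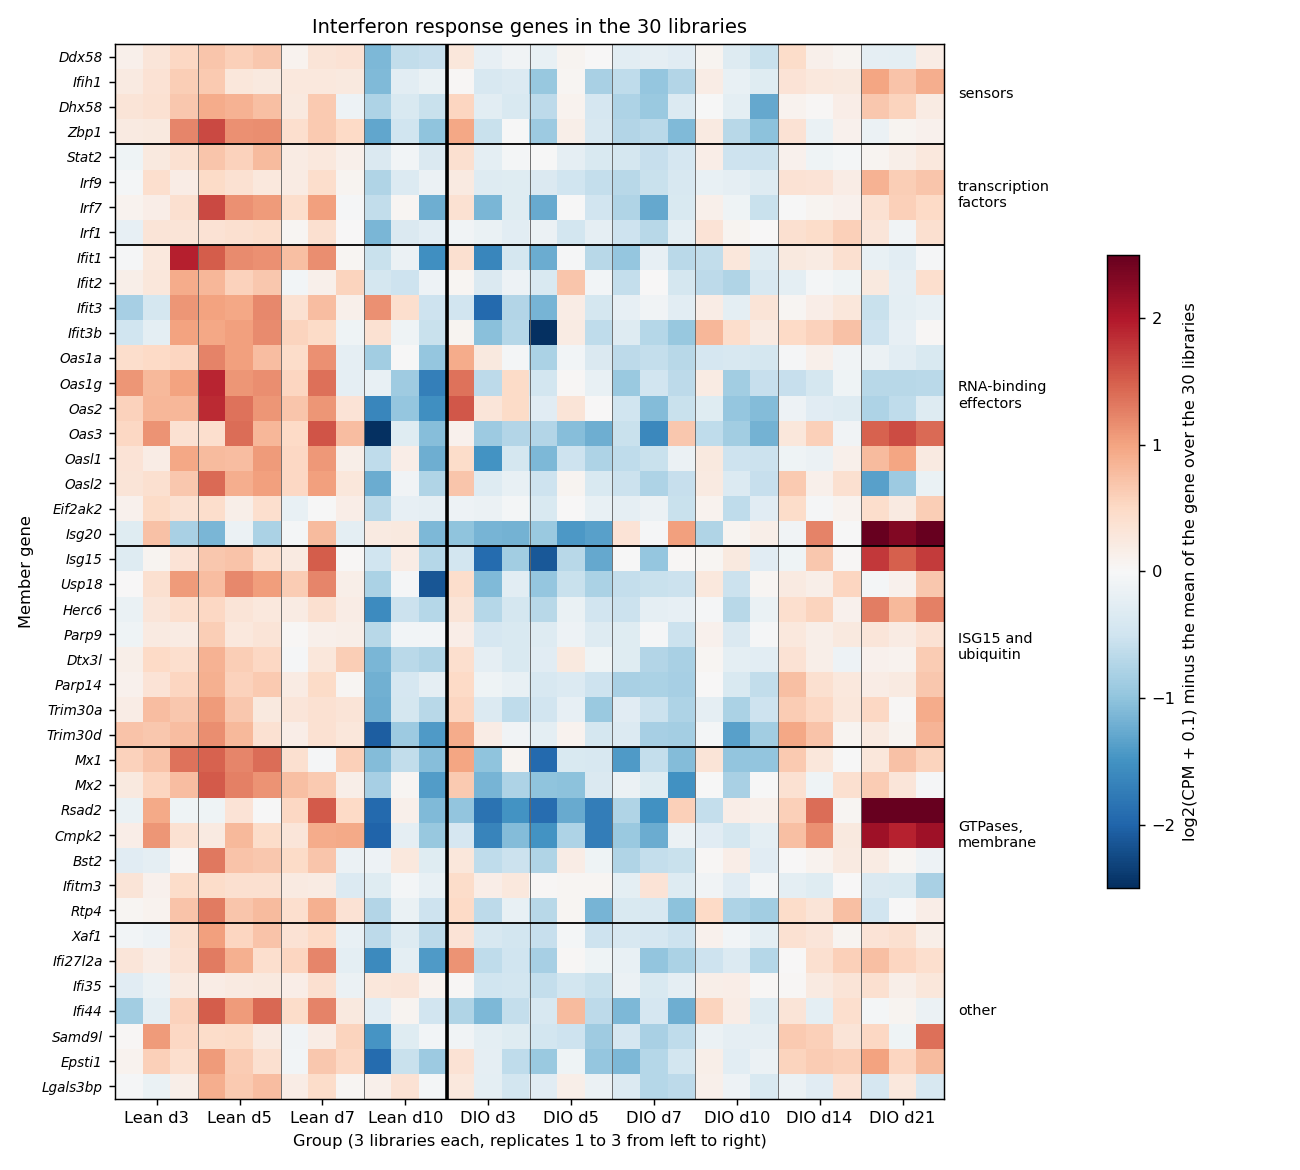
Level of each of the 42 member genes (rows, grouped by role) in each of the 30 libraries (columns, 3 per group), as log2(CPM + 0.1) minus the mean of that gene over all libraries; colours saturate at 2.5 in either direction. Lean d5 is the reddest lean group and lean d10 the bluest, DIO libraries of d5 and d7 are mostly blue, and Isg20, Rsad2, Cmpk2 and Isg15 are deep red on DIO d21.

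In the lean callus the members were highest on d5 and lowest on d10. The group mean was highest on d5 for 35 of 42 members, on d7 for 5 and on d3 for 2. It was lowest on d10 for 37 members. The mean log2 CPM of the members (prior count 2) was 4.56 ± 0.25 on d3 and 4.99 ± 0.12 on d5, then 4.62 ± 0.27 on d7 and 3.62 ± 0.34 at d10 (SD, n = 3). Between a member's highest and lowest lean group the ratio had a median of 2.66. Fewer cells of a responding type and less of this RNA per cell cannot be told apart in such bulk samples.

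From d3 to d5 in lean mice, 38 of 42 members had a higher fitted level, with a median log2 fold change of 0.37, against 0.01 over all 16471 genes tested. None passed an edgeR adjusted p of 0.05, against 0.449% of all genes tested. With an unadjusted edgeR p under 0.05 there were 11 members, against 2430 of the 16471 genes. DESeq2 called 4 members, against 569 of 25528 genes. Of 10 pan-leukocyte markers 8 had a lower mean on d5 than on d3, though their sums overlapped (1772 to 2714 CPM against 2461 to 3812 CPM). Divided by the pan-leukocyte sum of the same library, the members' median log2 ratio of group means went from 0.36 to 0.81. By that measure 41 members were higher and 1 lower. From d5 to d7 the median log2 fold change was −0.38 and 0 members were called by edgeR. Under an unadjusted 0.05 were 11 members, against 926 of the 16471 genes. DESeq2 called 1 member, against 36 of 25528 genes. Of all genes, edgeR called 0% between these days.

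From d7 to d10 in lean mice 40 of 42 members had a lower fitted level. The median log2 fold change was −1.03, against −0.01 over all genes tested, and 13 of 42 members passed the edgeR test, all 13 lower, where 1.65% of all genes tested were called lower. The called members were spread over the roles, with 3 of 4 sensors, 3 of 12 RNA-binding effectors, 4 of 8 genes of the ISG15, ubiquitin and ADP-ribose group, 2 of 7 GTPase and membrane genes and 1 of 7 other induced genes. None of the 4 transcription factor genes was called by edgeR, with adjusted p between 0.0637 and 0.0851. Oas2, which makes the second messenger of RNase L, was at 39.8, 52.6 and 31 CPM in the d7 libraries and at 7.83, 12.4 and 8.43 CPM on d10. The groups of Oas2 did not overlap, and the log2 fold change was −2.1 ± 0.26 (SE, edgeR adjusted p = 0.00738).

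Ddx58, the gene of the RNA sensor RIG-I, was at 38.0, 44.5 and 45.7 CPM on d7 and at 16.4, 23.3 and 23.9 CPM on d10 (log2 fold change −1.0 ± 0.16, edgeR adjusted p = 0.0185). Trim30d, of a family of TRIM ubiquitin ligases, went from 8.28, 9.63 and 8.97 CPM to 1.69, 3.91 and 2.69 CPM (−1.69 ± 0.29, edgeR adjusted p = 0.0216). Dtx3l, a ubiquitin ligase that pairs with Parp9, went from 18.5, 23.2 and 29.2 CPM to 8.58, 11.9 and 11.2 CPM (−1.15 ± 0.20, edgeR adjusted p = 0.0217). In each of these genes every d10 library was below every d7 library, and library 1 of lean d10 was the lowest. For Mx1 the values were 12.4, 9.16 and 14.2 CPM on d7 and 4.32, 6.06 and 4.43 CPM on d10 (−1.26 ± 0.25, edgeR adjusted p = 0.0333). Zbp1, a sensor of Z-form nucleic acid that can trigger necroptosis, went from 15.9, 18.5 and 16.6 CPM to 4.76, 8.35 and 5.86 CPM (−1.42 ± 0.30, edgeR adjusted p = 0.0365).

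Without library 1 of lean d10, 3 members were called between d7 and d10, against 100 of all genes. Without library 2 of lean d10 there were 21, against 642 genes. Leaving out library 1 of d7 gave 3 calls (45 genes), and library 2 or library 3 of d7 gave 1 (24 and 35 genes). In these fits 28 to 34 members had an unadjusted edgeR p under 0.05, against 2933 to 4185 genes. With all libraries 450 genes were called. Over the longer span from d3 to d10, 27 of 42 members fell by the edgeR test, where 14.1% of all genes tested were called lower, and the median was −1.0. This span shares the d10 libraries with the step from d7 to d10. Without library 1 of lean d10, 17 members were called over it, and 16 and 17 without library 2 or library 3 of d3. Of all genes these fits called 3846, 2863 and 4406, against 4825 with all libraries. All 4 sensors and 3 of 4 transcription factor genes were among the 27. The step from d3 to d10 was led by Oas2 (−2.09 ± 0.26), Trim30d (−2.13 ± 0.29), Mx1 (−1.83 ± 0.26), Ddx58 (−1.05 ± 0.16), Dtx3l (−1.19 ± 0.20) and Trim30a (−1.30 ± 0.25), with edgeR adjusted p between 0.000364 and 0.00301. Isg20, an RNA exonuclease, was not called over this span. It was at 28.8, 59 and 20.1 CPM on lean d3 and at 41.8, 42.4 and 16.3 CPM on lean d10, and the groups overlapped (log2 fold change −0.08 ± 0.45, edgeR adjusted p = 0.913).

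Marker genes of leukocytes were also lower on d10. All 10 pan-leukocyte markers, such as Ptprc and Coro1a, had a lower mean on lean d10 than on d7, and their sum was 942 to 1620 CPM on d10 and 1945 to 2482 CPM on d7. Of 10 monocyte and macrophage markers 8 were lower, and all 10 neutrophil markers were lower, with sums of 400.5 to 6175 CPM against 8190 to 12003 CPM. All 10 chondrocyte markers were higher. Divided by the pan-leukocyte sum of the same library, the members' median log2 ratio of group means between d10 and d7 was −0.28, against −1.04 without this division, and 29 of 42 members were lower. From d3 to d10 all 10 pan-leukocyte markers were lower too, with sums of 942 to 1620 CPM against 2461 to 3812 CPM on d3. Over that span the division turned the median log2 ratio from −1.02 to 0.0846, with 27 members higher and 15 lower. Of the 6 members named for it, the ratio of Ddx58 changed sign.

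In the DIO callus the order of the days was different. The mean log2 CPM of the members was 3.98 ± 0.48 on d3, with 3.72 ± 0.30 on d5 and 3.69 ± 0.06 on d7, then 3.98 ± 0.21 on d10, 4.47 ± 0.03 on d14 and 4.64 ± 0.09 on d21 (SD, n = 3). The group mean was highest on d21 for 24 members, on d14 for 13 and on d3 for 5, and it was lowest on d5 or d7 for 11 and 24 members. Lean mice were not analysed here on d14 and d21, so the late maxima cannot be compared between the diets. The range of d3 overlapped with that of every other day up to d14, and every library of d14 and d21 was above every library of d5, d7 and d10.

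**Figure D3:**
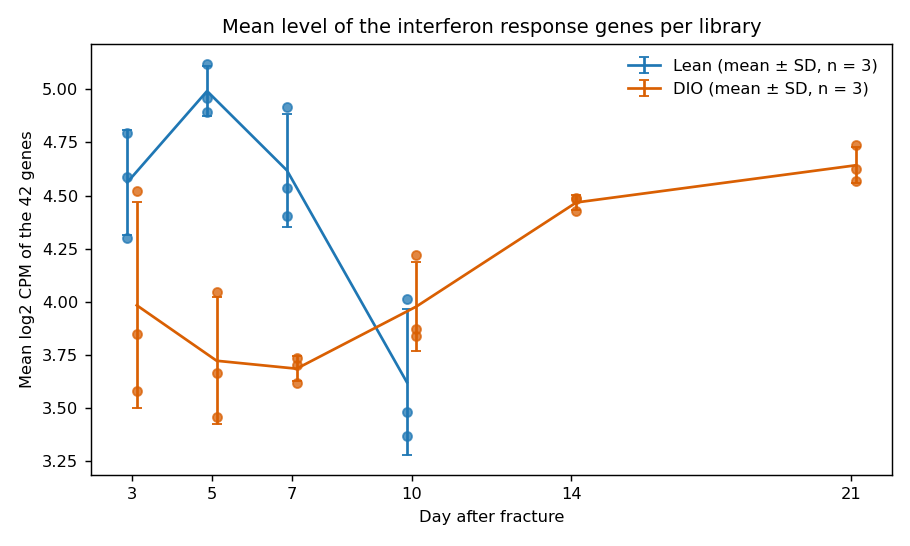
Mean log2 CPM of the 42 member genes in each library (points) by day after fracture, with the mean ± SD of 3 mice per group joined by lines, for lean (blue) and DIO (orange) mice. The lean group mean peaks on d5 and drops by d10. The DIO group means are lowest on d5 and d7 and highest on d21, while single libraries of several days overlap.

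Between neighbouring DIO days few members passed the test. From d3 to d5 the edgeR test called 0 of 42 members (1.68% of all genes tested). An unadjusted p under 0.05 was found for 5 members, against 2333 of 16995 genes. DESeq2 called 1 member, against 580 of 26547 genes. From d5 to d7 edgeR called 0 members (0.0177% of all genes), with 7 members and 2411 genes under an unadjusted 0.05. DESeq2 called 1 member and 339 genes. From d10 to d14 edgeR called 0 members (0.759% of all genes), with 13 members and 3006 genes under an unadjusted 0.05. DESeq2 called 5 members and 563 genes. In that last step 40 of 42 members had a higher fitted level, with a median log2 fold change of 0.47 against −0.00396 over all genes. All 10 pan-leukocyte markers were higher on d14 too, with sums of 1934 to 2376 CPM against 1531 to 1591 CPM on d10. Divided by the pan-leukocyte sum of the same library, the members' median log2 ratio of group means went from 0.47 to 0.029. By that measure 23 members were higher and 19 lower.

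From d7 to d10, Irf1 was called higher in DIO mice, where 6.01% of all genes tested were called higher. Irf1 encodes a transcription factor that responds to interferons and to inflammatory signals. It was at 41.2, 36.5 and 49.8 CPM on d7 and at 74.4, 61.8 and 59 CPM on d10 (log2 fold change 0.60 ± 0.15, edgeR adjusted p = 0.0144). The Irf1 groups did not overlap. Without library 1 or library 2 of d7, or without library 1 of d10, 0 members were called. Of all genes these fits called 1770, 1574 and 1699, against 2212 with all libraries.

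Late in DIO healing, from d14 to d21, 7 of 42 members rose (10.6% of all genes tested were called higher) and 1 fell (9.03% were called lower). The median log2 fold change over the members was 0.09. Isg20 was at 33.7, 84.4 and 35.4 CPM on d14 and at 249.8, 176.7 and 224.3 CPM on d21, without overlap, or 2.1 ± 0.33 higher in log2 terms (edgeR adjusted p = 0.000616). Rsad2, the gene of the antiviral enzyme viperin, was at 38.5, 67.5 and 26.2 CPM on d14 and at 202, 158.5 and 205.2 CPM on d21 (2.11 ± 0.42, edgeR adjusted p = 0.00317). Cmpk2, a mitochondrial nucleotide kinase gene next to Rsad2 on chromosome 12, was at 21.6, 28.2 and 15.1 CPM on d14 and at 56.1, 48.8 and 55.8 CPM on d21 (1.32 ± 0.32, edgeR adjusted p = 0.00974). These 3 genes were higher in every d21 library than in every other library of the series.

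Isg15 was at 16.4, 28.2 and 18 CPM on DIO d14 and at 60.4, 49.7 and 59.3 CPM on d21 (log2 fold change 1.45 ± 0.36, edgeR adjusted p = 0.0118). Oas3, a sensor of long double-stranded RNA, was at 12.7, 15.9 and 9.82 CPM on d14 and at 29.2, 32.6 and 28 CPM on d21 (1.24 ± 0.40, edgeR adjusted p = 0.0373). Both rose without overlap between the groups. Oasl2, a relative of the OAS enzymes, went the other way, from 53.5, 37.1 and 45.0 CPM to 13.3, 18.2 and 30.2 CPM (−1.12 ± 0.31, edgeR adjusted p = 0.0184). Irf9 and Herc6 also rose, with log2 fold changes of 0.44 ± 0.15 and 0.78 ± 0.26 (edgeR adjusted p = 0.0456 and 0.0461). Leaving out single libraries gave 3 to 7 called members, with 3 without library 1 or library 3 of d14, 4 without library 1 of d21 and 5 without library 3 of d21. Of all genes these last fits called 1762, 1594, 1285 and 2749, against 3335 with all libraries.

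Against d3, the d21 libraries of DIO mice had 15 members higher, where 23.5% of all genes tested were called higher, and 5 lower, where 21.8% were called lower. The log2 fold changes of Rsad2 (4.32 ± 0.47), Isg20 (3.75 ± 0.36), Cmpk2 (3.07 ± 0.34) and Isg15 (2.69 ± 0.38) were the largest, with edgeR adjusted p between 9.79e-07 and 3.19e-05. Irf9 (0.85 ± 0.15) and Herc6 (1.37 ± 0.27) followed, with edgeR adjusted p of 0.000218 and 0.00051. The 5 lower members were Oas2 (−1.44), Oas1g (−1.33), Oasl2 (−0.85), Ifitm3 (−0.78) and Oas1a (−0.69), 4 of which belong to the OAS family. Other OAS family members were higher, with 1.99 for Oas3 and 1.02 for Oasl1. Oas2 was at 72.2, 30.2 and 34.2 CPM on DIO d3 and at 14.3, 15.7 and 19.5 CPM on d21, without overlap. This span shares the d21 libraries with the step from d14.

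**Figure D4:**
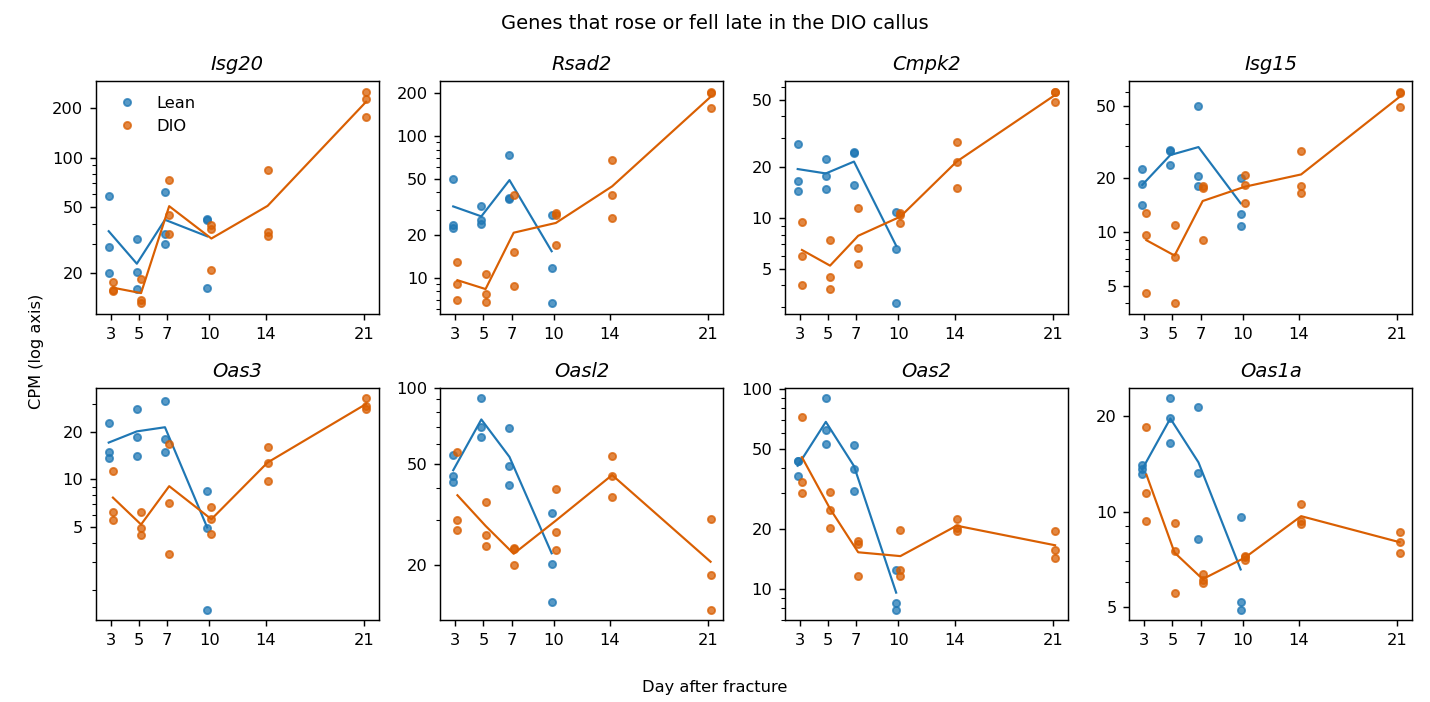
CPM (log axis) of 8 member genes by day after fracture, with 1 point per library and lines through the mean of 3 libraries, for lean (blue) and DIO (orange) mice. The group means of Isg20, Rsad2, Cmpk2, Isg15 and Oas3 are highest on DIO d21, although library 2 of lean d7 reaches 50.5 CPM for Isg15 and 31.2 CPM for Oas3, within the range of the DIO d21 libraries, and those of Oasl2, Oas2 and Oas1a are highest in other groups.

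Markers of blood and marrow cells were also higher on d21 than on d14. All 9 erythroid markers found were higher on DIO d21, with sums of 27222 to 38678 CPM against 3990 to 12927 CPM on d14. Of 10 neutrophil markers 8 were higher, with sums of 11094 to 27989 CPM against 2527 to 7914 CPM, and all 10 B cell markers and all 10 pan-leukocyte markers were higher. Library 2 of DIO d14, with the highest Isg20 and Rsad2 of its group, also had the highest erythroid and neutrophil sums of its group. Likewise library 3 of DIO d7, with the highest neutrophil and erythroid sums, had the highest Isg20 (72.9 CPM), Rsad2 (38.3 CPM) and Oas3 (16.8 CPM) of its group. These libraries were picked after the values were seen, and Isg20 went the other way in lean d10. There library 1 had the lowest neutrophil (400 CPM) and erythroid (501 CPM) sums. Its Isg20 was still above that of library 3, with sums of 2839 and 1508 CPM. Divided by the pan-leukocyte sum, 7 members were higher and 35 lower on d21 than on d14. Against d3, all 10 pan-leukocyte markers (sums of 2646 to 3906 CPM on d21 and 1194 to 1971 CPM on d3) and all 9 erythroid markers (27222 to 38678 CPM and 725 to 820 CPM) were higher on d21, as were all 10 neutrophil markers. Divided by the pan-leukocyte sum, the members' median log2 ratio between d21 and d3 turned from 0.44 to −0.52, with 8 members higher and 34 lower. Of the 6 members named for that span, the ratio of Irf9 changed sign. The part of these cells in the changes was not tested further.

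The diets were compared within each day. On d3, 41 of 42 members had a lower fitted level in DIO than in lean mice, with a median log2 fold change of −0.45 against 0.01 over all 15772 genes tested. None was called by edgeR (0% of all genes tested). With an unadjusted p under 0.05 there were 9 members, against 2374 of the 15772 genes. DESeq2 called 6 members, against 743 of 24389 genes. In 9 members every DIO library was below every lean library, a share to be read against the 10.6% of all genes tested that were lower without overlap. Rsad2 was at 12.8, 6.96 and 8.97 CPM in DIO mice and at 22.5, 49.2 and 23.6 CPM in lean mice on d3, without overlap.

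On d5 all 42 members had a lower fitted level in DIO than in lean mice, and 24 of them passed the edgeR test, where 0.948% of all genes tested were called lower. The members' median log2 fold change was −1.20, against 0.01 over all genes tested, and the called members ranged from −2.15 to −0.67. In 40 of 42 members every DIO library was below every lean library, against 12.4% of all genes tested. By role, 3 of 4 sensors, 4 of 4 transcription factor genes, 6 of 12 RNA-binding effectors, 3 of 8 ISG15, ubiquitin and ADP-ribose genes, 4 of 7 GTPase and membrane genes and 4 of 7 other induced genes were called lower. The median was most negative, at −1.71, for the GTPase and membrane genes.

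Parp14, an ADP-ribosyltransferase of macrophage signalling, was at 36.9, 38.3 and 34.0 CPM in DIO libraries and at 90.1, 73.3 and 77.1 CPM in lean libraries on d5. Its log2 fold change was −1.14 ± 0.11 (SE, edgeR adjusted p = 0.0221), the smallest adjusted p of the members. Rsad2 was at 6.73, 10.6 and 7.62 CPM in DIO mice and at 23.8, 32.1 and 25.3 CPM in lean mice (−1.71 ± 0.22, edgeR adjusted p = 0.0296). Usp18, which removes ISG15 from proteins and restrains the receptor, was at 3.21, 4.32 and 3.64 CPM against 11, 14.8 and 13.3 CPM (−1.82 ± 0.21, edgeR adjusted p = 0.0296). In each of these genes every lean library lay above every DIO library.

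Mx2 was at 1.76, 1.74 and 2.79 CPM in DIO mice and at 10.7, 8.81 and 8.01 CPM in lean mice on d5 (log2 fold change −2.13 ± 0.27, edgeR adjusted p = 0.0296). Irf9, the DNA-binding subunit of the interferon-activated complex, was at 37.5, 34.0 and 31.7 CPM against 67.5, 63.0 and 57.9 CPM (−0.87 ± 0.11, edgeR adjusted p = 0.0297). Oasl1, known as a brake on Irf7 translation, was at 3.03, 4.62 and 3.87 CPM against 11.6, 11.6 and 14.1 CPM (−1.70 ± 0.22, edgeR adjusted p = 0.0297). None of these genes overlapped between the diets. Irf7, the factor that amplifies interferon production, was also called, at 17.3, 41.3 and 30.02 CPM in DIO mice and 132, 92.3 and 87.2 CPM in lean mice (−1.82 ± 0.31, edgeR adjusted p = 0.0458). The smallest differences on d5 were those of Ifitm3 (−0.37 ± 0.10), Eif2ak2 or PKR (−0.51 ± 0.14), Ifit2 (−0.55 ± 0.27) and Isg20 (−0.59 ± 0.27), none of which was called by edgeR.

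The number of calls on d5 depended on single libraries. Leaving out library 2 of the lean mice, or any 1 of the 3 DIO libraries, left 0 called members and 0 called genes of all tested. In these fits 39 to 41 members had an unadjusted edgeR p under 0.05, against 1763 to 2776 of all genes. Their members' median log2 fold changes were −1.39 to −1.12. Leaving out library 1 or 3 of the lean mice left 13 and 32 members, against 200 of 16046 and 935 of 16064 genes. DESeq2 called 39 members, against 1107 of 24158 genes.

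On d7, 41 of 42 members again had a lower fitted level in DIO mice, and 10 passed the edgeR test, all lower, where 0.92% of all genes tested were called lower. The median log2 fold change was −1.0, against −0.00126 over all genes tested, and 33 members were lower without overlap, against 12% of all genes tested. Of the 10 called members 7 were also called on d5, which is 29.2% of the 24 and 70% of the 10. Parp14 was at 27.9, 28.3 and 27.4 CPM in DIO mice and at 56.2, 68.6 and 50.7 CPM in lean mice (−1.06 ± 0.17, edgeR adjusted p = 0.0195). Zbp1 was at 7.08, 7.32 and 5.48 CPM against 15.9, 18.5 and 16.6 CPM (−1.35 ± 0.22, edgeR adjusted p = 0.0197). Oasl2 was at 23.3, 20.0 and 23 CPM against 49, 69.5 and 41.4 CPM (−1.25 ± 0.21, edgeR adjusted p = 0.0212).

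The DIO libraries of these 3 genes lay close together on d7 and below every lean library. Oas2 was at 17.4, 11.6 and 16.7 CPM in DIO mice and at 39.8, 52.6 and 31 CPM in lean mice (log2 fold change −1.42 ± 0.24, edgeR adjusted p = 0.0229). Ifih1, the gene of the sensor MDA5, was at 8.84, 6.96 and 8.28 CPM against 16.6, 16.7 and 16.2 CPM (−1.02 ± 0.21, edgeR adjusted p = 0.039). Bst2 was at 37.7, 42.5 and 43.3 CPM against 89.6, 104 and 57.6 CPM (−1.01 ± 0.21, edgeR adjusted p = 0.0435). Isg20 was the member without a lower level, at 45.1, 34.8 and 72.9 CPM in DIO and 34.4, 62.1 and 29.9 CPM in lean mice (0.29 ± 0.32, edgeR adjusted p = 0.717), and its groups overlapped. Without library 1 or library 2 of the lean mice 0 members were called on d7, without library 1 or 2 of the DIO mice 2 and 3, and without library 3 of the DIO mice 15. Of all genes these fits called 34, 29, 184, 165 and 936, against 366 with all libraries.

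On d10 no difference between the diets passed the edgeR test in any member or any gene (0% of all genes tested). With an unadjusted p under 0.05 there were 3 members, against 1082 of 15341 genes. DESeq2 called 0 members, against 56 of 23391 genes. Here 37 of 42 members had a higher fitted level in DIO mice, with a median log2 fold change of 0.37 against 0.02 over all genes tested. In 5 members every DIO library was above every lean library, against 7.11% of all genes tested. Of 10 pan-leukocyte markers 9 were higher in DIO mice too, though their sums overlapped. Divided by the pan-leukocyte sum of the same library, the members' median log2 ratio of group means went from 0.36 to 0.086. By that measure 27 members were higher and 15 lower.

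**Figure D5:**
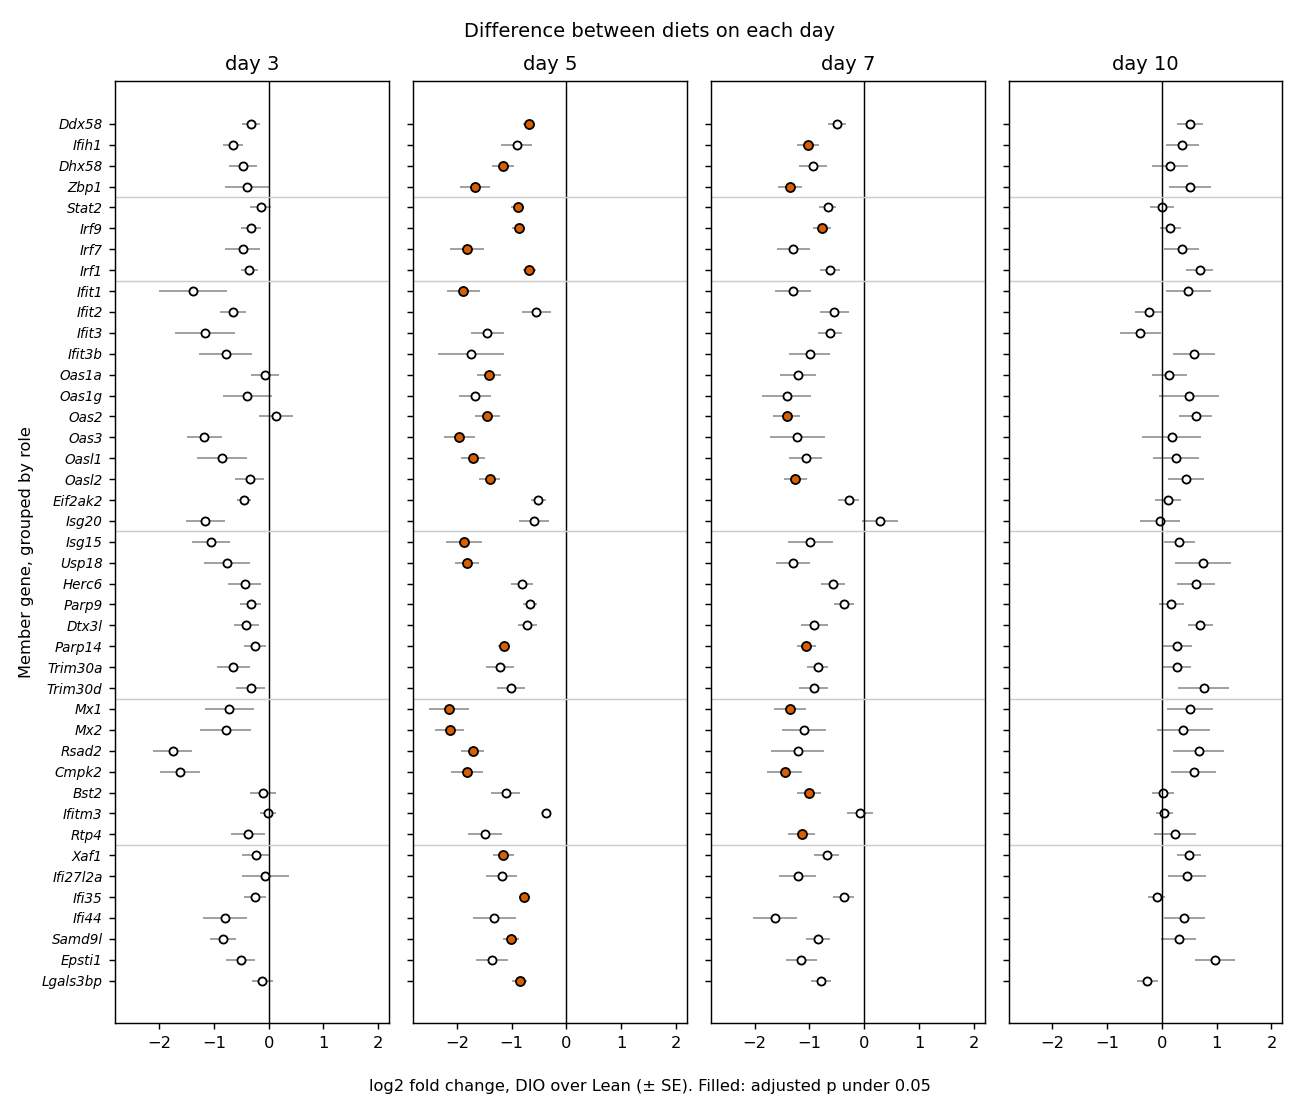
Log2 fold change (DIO over lean) of each member gene with its SE on d3, d5, d7 and d10, genes grouped by role, with filled points at an edgeR adjusted p under 0.05. All 42 points lie left of 0 on d5 and 41 on d7, 24 and 10 of them filled, whereas 37 points lie right of 0 on d10 and none is filled.

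Leukocyte markers differed between the diets on the same days. On d5 all 10 pan-leukocyte markers were lower in DIO mice, with sums of 974 to 1155 CPM against 1772 to 2714 CPM in lean mice, a log2 ratio of the means of −1.05. All 10 monocyte and macrophage markers were lower (2648 to 3005 CPM against 4334 to 5866 CPM), as were all 10 neutrophil, B cell and T and NK cell markers, whereas all 10 chondrocyte markers were higher. On d7 the pan-leukocyte sums were 824 to 1848 CPM in DIO and 1945 to 2482 CPM in lean mice, again with all 10 markers lower. The sums of 10 markers of plasmacytoid dendritic cells, known for their interferon secretion, overlapped between the diets on both days, but 8 of the 10 were lower in DIO mice on each day. The sum was mostly that of Cox6a2 and Tcf4, with means of 112 and 111 CPM over all libraries against 4.40 CPM for Siglech, and no marker of that list was at 0 in every library. Divided by the pan-leukocyte sum of the same library, the members' median log2 ratio of DIO over lean means was −0.19 on d5 and −0.15 on d7, against −1.19 and −1.02 without this division. By that measure 27 of 42 members were lower and 15 higher on each of these days. How many of all genes separate without overlap by that measure was not counted, so no such count is given for the members. Of the 6 members named on each day, the ratio of Irf9 changed sign on d5. On d3 the same division turned the median from −0.43 to 0.39.

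A single fit over the 24 early libraries, d3 to d10, tested whether the diet difference itself changed with the day. From d3 to d5 and from d5 to d7 the edgeR test called 0 members, against 0% and 0.00586% of all genes tested. With an unadjusted p under 0.05 there were 15 and 0 members, against 736 and 647 of 17057 genes. DESeq2 called 0 members in both, against 1 and 13 of 26808 genes. From d7 to d10 the difference rose in 13 of 42 members, where 1.7% of all genes tested were called higher, and the median change over the members was 1.34 on the log2 scale against 0.02 over all genes. Dtx3l led with 1.61 ± 0.32 (edgeR adjusted p = 0.00684). Its lean mean fell from 23.6 ± 5.3 to 10.6 ± 1.7 CPM while its DIO mean went from 12.5 ± 2.5 to 17.1 ± 2.1 CPM. It was followed by Irf1 (1.31 ± 0.27), Oas2 (2.04 ± 0.44), Epsti1 (2.12 ± 0.47), Parp14 (1.33 ± 0.31) and Ddx58 (1.02 ± 0.24), with edgeR adjusted p between 0.00827 and 0.0177. The count was 4 without library 2 of lean d7 or library 1 of DIO d10, 5 without library 1 of lean d10, 6 without library 2 of DIO d7, and 20 without library 2 of lean d10. Of all genes these fits called 320, 342, 257, 429 and 1311, against 865 with all libraries.

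Over the time course from d3 to d10, with a polynomial of degree 2 in the day and 3 terms of diet tested together, 39 of 42 members differed between the diets by the edgeR test, where 8.13% of all genes tested were called. Irf9 and Parp14 had the smallest adjusted p (edgeR adjusted p = 0.00466 for each). The members that were not called were Ifit2, Isg20 and Ifitm3, with edgeR adjusted p of 0.0786, 0.312 and 0.547. This test uses the same libraries as the comparisons of single days.

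Of 53 other genes of the pathway, 31 passed the filter in every comparison but that of the diets on d10, where 30 did. The ligands were at or near 0. Of 21 interferon genes 11 had no count in any library, 3 reached 3 counts in some library, and the 20 other than Ifng had 33 counts over the 30 libraries together. Ifnb1, the gene of interferon beta, was detected in 1 lean d3 library only, with a group mean of 0.0332 CPM, under the floor of 3 counts. Ifng had 66 counts in all and at most 11 in a library, and its highest group mean was 0.355 CPM, on DIO d14. The level of ligand RNA was thus not measurable at this depth, which does not show that it was absent.

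The receptor genes were expressed throughout. Ifnar1 had group means of 81.4 to 113 CPM and Ifnar2 of 33.4 to 54.1 CPM, and neither was called between the diets on d5 (log2 fold change −0.19 ± 0.12 and −0.56 ± 0.13, edgeR adjusted p = 0.429 and 0.0817). On d5 3 of the 31 were called, all lower in DIO mice, where 0.948% of all genes tested were called lower. Among them were Irf8 (−1.13 ± 0.18, edgeR adjusted p = 0.0432) and Irf5 (−0.93 ± 0.17, edgeR adjusted p = 0.0498). They encode regulators known from myeloid cells. On d7 only Il10rb, a receptor chain of interferon lambda and interleukin 10, was called (−0.77 ± 0.16, edgeR adjusted p = 0.0399). Of all genes tested, 0.92% were called lower on that day. In the step from d7 to d10 in lean mice Tlr7, an endosomal RNA receptor, and Irf5 fell (−1.21 ± 0.27 and −1.07 ± 0.18, edgeR adjusted p = 0.0416 and 0.0207). Of all genes tested, 1.65% were called lower in that step.

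From d3 to d10 in lean mice 18 of the 31 pathway genes were called, 17 lower and 1 higher. Of all 16471 genes tested, 2317 were called lower and 2508 higher. The higher pathway gene was Irf3 (log2 fold change 0.70 ± 0.17, edgeR adjusted p = 0.0101). From d14 to d21 in DIO mice 3 of the 31 were higher and 3 lower, near the shares of all genes tested (10.6% higher and 9.03% lower). Among the lower ones was Socs1, an inhibitor of Jak kinases (−1.33 ± 0.29, edgeR adjusted p = 0.00514). The change of the diet difference from d7 to d10 was called for Il10rb, Tlr7 and Irf5, all higher, against 1.7% of all genes. The time course test called 11 of the 31, against 8.13% of all genes tested. The 16 members with a match to the response element in a promoter window had a median log2 fold change of −1.31 between the diets on d5, with 7 called, and the 16 with a window but no match −0.94, with 10 called. From d14 to d21 in DIO mice these medians were −0.12 and 0.21, with 3 and 5 called. Of all genes tested, 0.948% were called lower between the diets on d5. From d14 to d21 10.6% were called higher and 9.03% lower.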

How the data were processed

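The authors prepared stranded mRNA libraries, aligned the reads to GRCm38 with HISAT2 2.1.0 and counted them on genes with HTSeq. The deposited values are raw read counts per gene, without normalization. For HTSeq, the version, strand option and annotation are not given in the sources used here, so reads of genes that overlap on opposite strands may not have been told apart. Symbols, positions and exon lengths were taken from GENCODE M21.

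The members and gene lists were chosen with earlier results of these data known. Each of the 42 members may be named. For each comparison, values in every library are given for at most 6 members past the threshold in order of adjusted p, and the others by counts, ranges and medians. Values of Irf7, Isg20, Isg15, Rsad2, Irf9, Herc6 and Oas2 given beyond these were chosen after they were seen. The same holds for those of Oas1a, Oas1g, Oas3, Oasl1, Oasl2, Ifitm3, Eif2ak2 and Ifit2.

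Counts were scaled with TMM factors, filtered with filterByExpr and tested in R 4.3.3 with the quasi-likelihood F-test of edgeR 4.0.16 (two-sided). P-values were adjusted over all genes tested (Benjamini-Hochberg, threshold 0.05). Lean days were fitted over 12 libraries, DIO days over 18, the diets over the 6 of a day, and changes of the diet difference and the time course over 24. With 3 mice per group the p-values measure the spread between these mice. The tests were checked on data with known changes. Alternatives were DESeq2 1.42.0, RLE factors, no filter, all 30 libraries in 1 fit, the replicate number in the fit, each library left out in turn and, chosen after seeing the data, division by the pan-leukocyte sum. Same-numbered libraries are different mice, and their deviations correlated above 0.1 in every pair only for lean d7 against d5 (0.206 to 0.277), where 0 members were called with or without the replicate block. Near-identical stretches were searched with BLAST 2.17.0 at a minimum of 100 bases and 95% identity. Motifs were searched on both strands. Results of 1 pathway gene are not reported here.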

Additional observations from a re-analysis of the deposited data

Results flagged for a closer look

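The diet difference (DIO minus lean) changed between d7 and d10 beyond the threshold in 13 members, by the interaction term of the edgeR fit of 24 libraries. On the log2 scale the change was 1.02 for Ddx58, 1.40 for Ifih1, 0.93 for Irf9, 1.31 for Irf1, 2.04 for Oas2, 1.70 for Oasl2, 1.61 for Dtx3l, 1.33 for Parp14 and 1.69 for Trim30d. For Cmpk2 it was 2.03, for Xaf1 1.18, for Ifi44 2.04 and for Epsti1 2.12. Each of these changes is positive, since lean levels were lower on d10 than on d7 while DIO levels were about level or higher. The pan-leukocyte sum moved in the same way, from 1945 to 2482 CPM down to 942 to 1620 CPM in lean mice and from 824 to 1848 CPM to 1531 to 1591 CPM in DIO mice, and its part in the change was not tested. Groups of 3 libraries were not tested for outliers.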

How the results depend on the processing

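RLE factors kept every count of called members within 1.5 times. Without a filter on low counts, 2 members were called for lean d5 against d3, 1 for DIO d7 against d5, 2 for DIO d14 against d10, 3 for the diets on d3 and 22 for the diets on d7. DESeq2 called 4 for lean d5 against d3, 1 for lean d7 against d5, 28 for lean d10 against d7, 1 each for DIO d5 against d3 and d7 against d5, 5 for DIO d14 against d10, 6, 39 and 24 for the diets on d3, d5 and d7, and 20 for the change of the diet difference from d7 to d10. With all 30 libraries in 1 fit, 1 was called for lean d5 against d3 and 20 for lean d10 against d7. Of all genes this fit called 202 and 1529. Without a filter 169, 271, 329, 515 and 724 of all genes were called, in the order given. DESeq2 called 569, 36 and 1757 of all genes for the lean steps and 580, 339 and 563 for the DIO steps. For the diets it called 743, 1107 and 934, and 1472 for the change from d7 to d10.

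The replicate number is the order of the samples within a group, since the labels used here give day and diet only. It was used as a block, although it marks different mice. With the replicate block 1 member was called for lean d5 against d3, 22 for lean d10 against d7, 0 for the diets on d5 and 6 for the diets on d7, and no other count of members moved by over 1.5 times. Of all genes it called 199, 1479, 0 and 320, in the order given. For the diets on d5, 40 members had an unadjusted edgeR p under 0.05 with the block, against 2090 of 15722 genes. On d5 the same-numbered libraries of the diets correlated at −0.400 to −0.0606 and thus share only a number.

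Leaving out 1 library gave counts of members of 0 to 1 for lean d5 against d3, 1 to 21 for lean d10 against d7, 16 to 31 for lean d10 against d3, 0 to 2 for DIO d7 against d5, 0 to 1 for DIO d10 against d7, 0 to 2 for DIO d14 against d10, 3 to 7 for DIO d21 against d14 and 15 to 24 for DIO d21 against d3. Of all genes these fits called 9 to 129, 24 to 1141 and 2863 to 5016 for the lean spans. For the DIO spans they called 0 to 236, 1510 to 2495, 0 to 459, 1285 to 4070 and 6072 to 7921, in the order given. For the diets leaving out 1 library gave 0 to 32 members on d5, 0 to 15 on d7, 4 to 20 for the change from d7 to d10 and 30 to 39 for the time course. Of all genes these fits called 0 to 935 on d5, 29 to 936 on d7 and 257 to 1660 for the change. In the time course the 30 members, without library 2 of lean d7, stood against 670 genes. The other counts of members were 0 whichever library was left out. Fewer libraries in the fit is the construction of this alternative. Of 43 results of named members, none changed direction with RLE factors, no filter, the block, DESeq2, all 30 libraries in 1 fit or 1 library left out; 79 of 294 values with 1 library left out were no longer past the threshold, as were 9 of 43 with the block and 4 of 43 with all libraries in 1 fit.

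Division by the pan-leukocyte sum reversed the members' median log2 ratio of group means, to 0.0846 for lean d10 against d3, 0.34 for DIO d5 against d3, −0.0582 for DIO d10 against d7, −0.52 for DIO d21 against d14, −0.52 for DIO d21 against d3 and 0.39 for the diets on d3. Of 37 ratios of named members between 2 groups, 3 changed sign with this division, those of Ddx58 for lean d10 against d3, Irf9 for DIO d21 against d3 and Irf9 for the diets on d5. The cause was not tested. With 3 mice per group the spread between mice limits the precision of the members, and the floor of 3 counts limits that of ligand RNA.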
